A study of Arabidopsis thaliana with 8 samples.

Results

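Dark-grown DAYi seedlings were compared between a plate with 1 µM dexamethasone (DEX) and a mock plate with ethanol (EtOH), 1 RNA-seq library a side. Of 26987 gene entries in the deposited table, 12339 reached 10 FPKM in at least 1 of both libraries and had a value above 0 in both, and these were ranked by the ratio of DEX over EtOH. FPKM is the number of sequenced fragments per kilobase of transcript, scaled to the depth of the library. A further 14630 entries stayed under 10 FPKM in both libraries, and 18 entries that reached 10 FPKM in one library were listed at 0 in the other and have no ratio.

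The series holds 8 libraries of whole Arabidopsis thaliana seedlings, all of ecotype Col-0, grown on MS plates with sucrose. Both DAYi libraries are of seedlings that carry a DEX-inducible RNAi hairpin against DAY and were grown for 5 days in the dark. A second DAYi pair, DEX and EtOH, was grown for 9 days under long days, and bri1-116, a mutant of the brassinosteroid receptor BRI1, and wild-type Col-0 were grown for 5 days in the dark on mock plates. No DEX-treated Col-0 library is among the samples, so the steroid and the knockdown cannot be told apart. The sample titles carry the number 25 for DEX and the number 3 for EtOH with no explanation, and if these are plant lines, line and treatment cannot be told apart either. In the dark, the titles of the bri1-116 and Col-0 samples and their genotype fields disagree, and the titles were followed. With 1 library per condition there is no replicate, so a ratio describes these libraries, no test was possible, and a difference over 2-fold is a description and not a call against replicate error.

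Seedlings that germinate in darkness are etiolated: they elongate the hypocotyl, keep the cotyledons closed under an apical hook and hold their plastids as etioplasts. Brassinosteroids, auxin and the phytochrome-interacting factors (PIFs) sustain this growth through genes that loosen the cell wall and through small auxin-induced proteins. DAY encodes a chaperone-like protein, and the study asked what its loss does to this programme.

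DAY (AT3G51140), on chromosome 3 from base 18997600 to 18999904 of the TAIR10 build, was at 34.8 FPKM in DEX-labelled and 13.4 FPKM in EtOH-labelled seedlings, 2.60-fold higher where a knockdown was intended. The conditions are therefore called DEX-labelled and EtOH-labelled throughout. In the light pair the same entry was at 6.88 FPKM DEX-labelled against 56.9 FPKM EtOH-labelled, and dark Col-0, from a separately normalized table, stood at 13.8 FPKM. Dark bri1-116, which holds no DAY hairpin, stood at 32.8 FPKM in the table of Col-0. PRE1, a growth regulator that was low in dark bri1-116, was 37.5-fold lower in DEX-labelled than in EtOH-labelled seedlings. Against dark Col-0, 6.74% of ranked genes were over 2-fold higher and 7.67% lower in DEX-labelled seedlings, and 0.36% higher and 0.171% lower in EtOH-labelled ones. Reads from the hairpin and from DAY itself cannot be told apart in a value per gene, and the cause of the higher DAY value was not tested. BRI1, the brassinosteroid receptor, had 42.99 FPKM in DEX-labelled and 68.01 FPKM in EtOH-labelled seedlings, within 2-fold.

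Most ranked genes were within 2-fold. The median log2 ratio of the ranked genes was 0.03, and the middle 50% lay between -0.31 and 0.31. On this scale 1 is a doubling. More than 2-fold higher in DEX-labelled seedlings were 666 ranked genes (5.4%), and 1069 (8.66%) were more than 2-fold lower, leaving 10604 within 2-fold. Past 10-fold, 63 genes were higher and 150 lower, and past 30-fold 21 were higher and 55 lower. Abundant genes lay outside the 2-fold band more often than scarce ones: among the 81 genes of 1000 FPKM or more, 21.0% were higher and 23.5% lower, against 4.93% and 8.01% of the 6264 genes of 10 to 30 FPKM. The genes more than 2-fold higher held 36.7% of all FPKM in DEX-labelled and 18.4% in EtOH-labelled seedlings, and most of this was 1 entry, AT2G01021, a short transcript on chromosome 2 that starts 625 bases past a 5.8S ribosomal RNA gene. It alone took 28.6% of the summed FPKM in DEX-labelled and 15.8% in EtOH-labelled seedlings. Leaving it out and scaling the rest to the same sum moved the median log2 ratio to 0.01.

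Among the 18 entries listed at 0 in one library, 12 were at 0 in DEX-labelled seedlings and 6 in EtOH-labelled ones. RTFL18, a small peptide gene, was listed at 0 in DEX-labelled seedlings and had 39.1 FPKM in EtOH-labelled ones. AT5G62730, of a nitrate and peptide transporter family, had 11.2 FPKM in DEX-labelled seedlings and was listed at 0 in EtOH-labelled ones. Most of the others are very short transcripts, and a listed 0 can be a failed estimate.

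**Figure D1:**
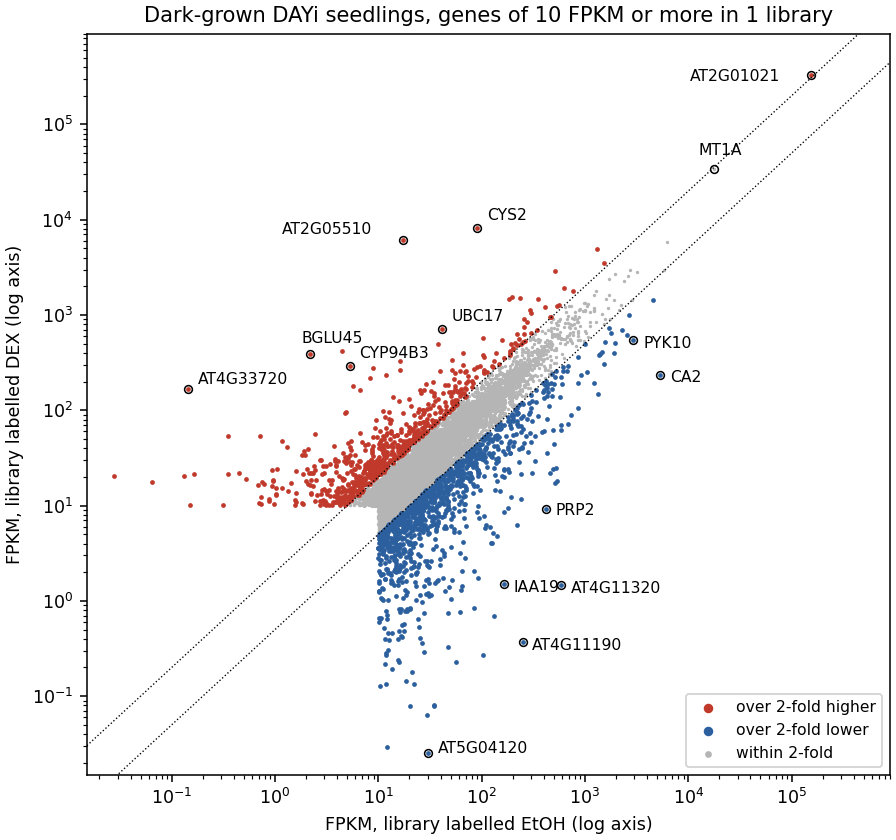
FPKM of the 12339 ranked genes in DEX-labelled (vertical, log axis) and EtOH-labelled (horizontal, log axis) dark DAYi seedlings, with dotted lines at 2-fold; the empty lower left corner is the 10 FPKM minimum. The 666 genes above the band include CYS2 and AT2G05510 at 8264 and 6158 FPKM in DEX-labelled seedlings, and the 1069 below it reach under 0.1 FPKM.

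A PR1-like protein, a cystatin and a glycine-rich protein had some of the highest ratios. AT4G33720, a PR1-like secreted protein, had 166 FPKM in DEX-labelled and 0.143 FPKM in EtOH-labelled seedlings. CYS2, a cystatin that inhibits cysteine proteases, had 8264 FPKM DEX-labelled against 90.1 FPKM EtOH-labelled, 91.7-fold higher. Of the 9 ranked cystatins it was the only one more than 2-fold higher. It was the 3rd most abundant entry in DEX-labelled seedlings and the 1724th in EtOH-labelled ones. AT2G05510, which encodes a glycine-rich protein, was the 4th most abundant entry in DEX-labelled and the 8465th in EtOH-labelled seedlings, with 6158 FPKM in DEX-labelled and 17.2 FPKM in EtOH-labelled seedlings, a 358-fold difference. Neither gene was raised in the same way in dark bri1-116: CYS2 had 63.6 FPKM in bri1-116 and 56.5 FPKM in Col-0, and AT2G05510 had 15.9 FPKM in bri1-116 and 33.5 FPKM in Col-0.

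Enzymes of specialised metabolism and of hormone turnover stood beside them. BGLU45, which splits glucose from stored monolignols, had 388 FPKM in DEX-labelled and 2.16 FPKM in EtOH-labelled seedlings, 179-fold higher, and its close relative BGLU46 had 95.4 FPKM DEX-labelled against 24.00 FPKM EtOH-labelled. GAD4, a glutamate decarboxylase that makes GABA, had 54.3 FPKM in DEX-labelled and 0.354 FPKM in EtOH-labelled seedlings. IMS2, a methylthioalkylmalate synthase of glucosinolate chain elongation also known as MAM3, had 21.5 FPKM DEX-labelled against 0.164 FPKM EtOH-labelled. CYP94B3 hydroxylates the active jasmonate, jasmonoyl-isoleucine, in its turnover. Its level was 294 FPKM in DEX-labelled and 5.30 FPKM in EtOH-labelled seedlings, 55.4-fold higher, and in the light 211 FPKM DEX-labelled against 0.814 FPKM EtOH-labelled.

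Transcription factors, a peptide gene and a heme oxygenase were at the same end. EIN3-like 4 (AT5G10120), of the ethylene-signalling EIN3 family, had 20.2 FPKM in DEX-labelled and 0.131 FPKM in EtOH-labelled seedlings. SAR DEFICIENT 1 (AT1G73805), an activator of salicylic acid synthesis, had 53.7 FPKM DEX-labelled against 0.711 FPKM EtOH-labelled. The homeobox gene HB26 had 47.6 FPKM in DEX-labelled and 1.17 FPKM in EtOH-labelled seedlings, and PEI1, a zinc finger factor known from embryos, had 16.5 FPKM DEX-labelled against 0.678 FPKM EtOH-labelled. RTFL10, a small peptide of the ROTUNDIFOLIA-like family, whose members restrain cell proliferation when overexpressed, had 179 FPKM in DEX-labelled and 5.66 FPKM in EtOH-labelled seedlings. HO4, a heme oxygenase of the family that makes the phytochrome chromophore, had 21.2 FPKM DEX-labelled against 0.347 FPKM EtOH-labelled. Of the 100 highest genes 2 had an EtOH-labelled value worth about 10 fragments or fewer, and the median was about 224. For AT1G32780, a zinc-binding dehydrogenase, with 20.5 FPKM in DEX-labelled and 0.0278 FPKM in EtOH-labelled seedlings, this was about 5 fragments, as estimated from the steps between low FPKM values.

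The opposite end was led by genes that were well expressed in EtOH-labelled seedlings and almost silent in DEX-labelled ones. AT4G11190, a dirigent protein, a family that guides the coupling of lignan and lignin precursors, had 0.370 FPKM in DEX-labelled and 249 FPKM in EtOH-labelled seedlings, 672-fold lower. AT4G11320, a papain-like cysteine protease, had 1.48 FPKM DEX-labelled against 591 FPKM EtOH-labelled, 400.2-fold lower. AT1G31710, copper amine oxidase 2, had 0.0629 FPKM in DEX-labelled and 29.5 FPKM in EtOH-labelled seedlings. The sugar transporter SWEET3 (AT5G53190) was likewise low at 0.0812 FPKM in DEX-labelled against 34.9 FPKM in EtOH-labelled seedlings, and the fasciclin-like arabinogalactan protein FLA13, a cell surface glycoprotein, had 0.691 FPKM DEX-labelled against 133 FPKM EtOH-labelled. The lowest ratio belonged to AT5G04120, a phosphoglycerate mutase-like protein with 0.0256 FPKM in DEX-labelled and 30.5 FPKM in EtOH-labelled seedlings, but the DEX-labelled value is worth about 3 fragments or fewer and dark Col-0 stood at 5.99 FPKM, so no fold is given. Fragments could be estimated for 99 of the 100 lowest genes. For 10 of these the DEX-labelled value was worth about 10 fragments or fewer, and the median was about 77.

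Signals and growth regulators were at this end too. IAA19, an auxin-induced repressor of auxin response that is a target of the PIFs and of brassinosteroid signalling, had 1.51 FPKM in DEX-labelled and 164 FPKM in EtOH-labelled seedlings, 109-fold lower. CLE2, a small signalling peptide, had 0.326 FPKM DEX-labelled against 47.3 FPKM EtOH-labelled, and HEC2, a bHLH factor, had 0.359 FPKM in DEX-labelled and 26.6 FPKM in EtOH-labelled seedlings. WSD1, a wax ester synthase, had 0.192 FPKM DEX-labelled against 13.5 FPKM EtOH-labelled. CA2, a cytosolic beta carbonic anhydrase, was the 501st most abundant entry in DEX-labelled seedlings and the 5th in EtOH-labelled ones, with 237 FPKM in DEX-labelled and 5359 FPKM in EtOH-labelled seedlings.

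**Figure D2:**
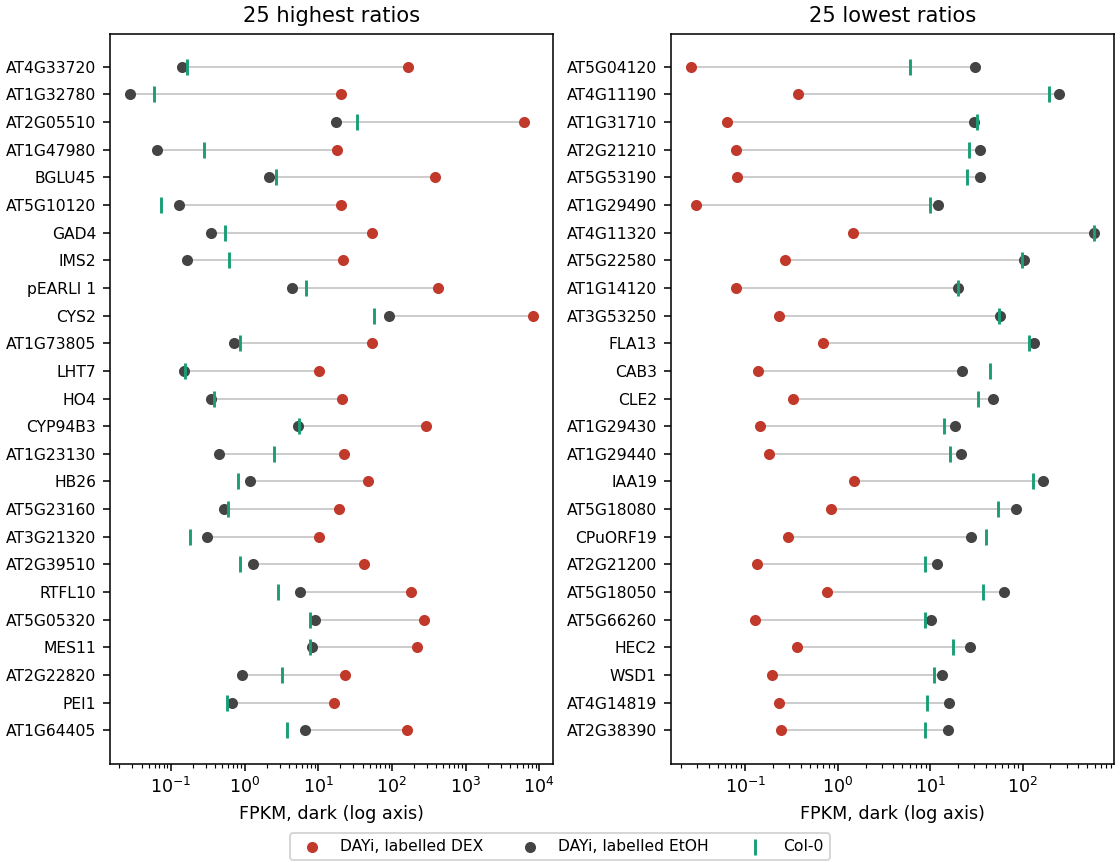
FPKM on a log axis of the 25 genes with the highest and the 25 with the lowest ratio in dark DAYi seedlings, with DEX-labelled values in red, EtOH-labelled values in dark grey and dark Col-0, from a separately normalized table, as a green bar. The Col-0 bars lie within 2-fold of the EtOH-labelled points for 20 of the 25 highest and 24 of the 25 lowest genes, as for AT4G11320 at 591 FPKM EtOH-labelled and 592 FPKM in Col-0; the widest gaps are AT1G23130, at 0.446 FPKM EtOH-labelled and 2.49 FPKM in Col-0, and AT5G04120.

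Among families read from the description column, the SAUR proteins, a large family of small, auxin-induced and growth-promoting proteins, stood lowest. Of 78 SAUR entries 38 were ranked, and 27 of these were more than 2-fold lower in DEX-labelled seedlings and 2 were higher. The median log2 ratio of the 38 was -4.69 against 0.03 over all ranked genes. With a minimum of 1 FPKM, 36 were lower and 8 higher of 65 ranked SAUR genes (median -2.54). SAUR24 (AT5G18080) had 0.843 FPKM in DEX-labelled and 84.5 FPKM in EtOH-labelled seedlings, 100.2-fold lower, and AT3G53250 had 0.229 FPKM DEX-labelled against 56.96 FPKM EtOH-labelled. SAUR15 was listed at 0 in DEX-labelled seedlings and had 15.1 FPKM in EtOH-labelled ones. At the minimum of 10 FPKM 2 members were higher. AT4G31320 had 10.9 FPKM in DEX-labelled and 3.63 FPKM in EtOH-labelled seedlings, and AT3G61900 had 24.9 FPKM DEX-labelled against 10.9 FPKM EtOH-labelled. SAUR36 (AT2G45210) was within 2-fold at 46.4 FPKM in DEX-labelled and 33.6 FPKM in EtOH-labelled seedlings.

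Many SAUR genes lie in tandem, and most ranked members of 3 arrays were low. On chromosome 5, all 6 ranked SAUR genes between AT5G18010 and AT5G18080 were lower, by 15.8-fold to 100.2-fold, while AT5G18040 and DRT101, which lie between them and are not SAUR genes, were at 1.56 and 1.75 times the EtOH-labelled level. On chromosome 1, 7 of 8 ranked SAUR genes from AT1G29420 to SAUR68 were lower, and AT1G29420, the first of them, was within 2-fold at 12.4 FPKM in DEX-labelled and 9.93 FPKM in EtOH-labelled seedlings. In 6 of the lower genes the difference was 24.4-fold to 131-fold. The widest, of AT1G29430, rested on about 9 fragments in DEX-labelled seedlings, and that of AT1G29440 on about 8. AT1G29490 was at about 3 fragments or fewer in DEX-labelled seedlings, with 0.0292 FPKM DEX-labelled and 12.1 FPKM EtOH-labelled. AT1G29470, inside that array, had 78.8 FPKM DEX-labelled against 75.5 FPKM EtOH-labelled, and AT1G29465, also inside it and not a SAUR gene, had 29.6 FPKM in DEX-labelled and 62.3 FPKM in EtOH-labelled seedlings. On chromosome 3 all 4 ranked SAUR genes from AT3G03820 to AT3G03850 were lower by 24.6-fold to 46.2-fold. Tandem SAUR copies are near-identical, so their fragments may have been divided among them unevenly and their values are not independent.

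**Figure D3:**
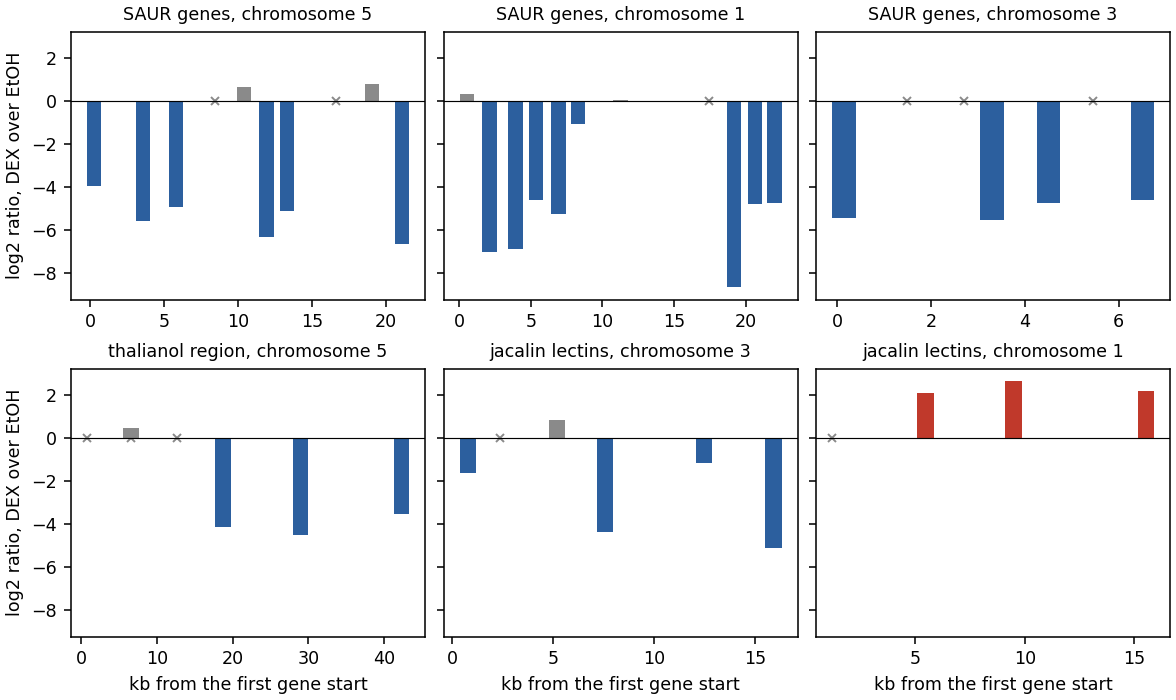
Log2 ratio of DEX-labelled over EtOH-labelled FPKM along 6 gene arrays, against distance in kb from the first gene start; blue bars are more than 2-fold lower, red bars more than 2-fold higher, grey bars within 2-fold, and grey crosses mark unranked genes. In the SAUR arrays the ranked SAUR genes are lower, apart from AT1G29420 at the start of the chromosome 1 array. Of the other ranked genes inside the SAUR arrays only AT1G29465 is lower. In the thalianol region 3 of 4 ranked genes are lower, and in the jacalin lectin array of chromosome 3 4 of 5. All 3 ranked jacalin lectins of chromosome 1 are higher.

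Because most ranked SAUR genes were low together, their upstream sequence is shown. The 3 genes were chosen, after their values were seen, from the arrays of chromosomes 5 and 1, and each line gives the 250 bases before the gene start of RefSeq in the build TAIR10.1, on the gene's own strand, with E-boxes (CANNTG, the letters that bHLH factors can bind, which read the same on both strands) in capitals. SAUR24 is at chr5:5983433-5983682 (plus strand), AT5G18060 at chr5:5975530-5975779 (plus strand) and AT1G29440 at chr1:10305109-10305358 (minus strand).
AT5G18080: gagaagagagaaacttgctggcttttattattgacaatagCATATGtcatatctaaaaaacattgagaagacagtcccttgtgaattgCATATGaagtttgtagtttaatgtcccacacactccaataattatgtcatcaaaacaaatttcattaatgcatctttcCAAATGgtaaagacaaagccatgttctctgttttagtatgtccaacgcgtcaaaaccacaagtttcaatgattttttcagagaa
AT5G18060: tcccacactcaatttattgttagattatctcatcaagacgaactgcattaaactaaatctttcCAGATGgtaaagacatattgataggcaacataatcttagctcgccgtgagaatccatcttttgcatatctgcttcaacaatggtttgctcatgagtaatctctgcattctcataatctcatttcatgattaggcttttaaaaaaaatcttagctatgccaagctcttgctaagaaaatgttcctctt
AT1G29440: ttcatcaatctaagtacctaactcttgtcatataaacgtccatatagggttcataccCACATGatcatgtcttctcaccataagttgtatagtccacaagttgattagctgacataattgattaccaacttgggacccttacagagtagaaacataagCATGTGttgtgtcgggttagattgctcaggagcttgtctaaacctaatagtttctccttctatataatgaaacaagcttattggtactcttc
These windows hold 3, 1 and 2 E-boxes. An E-box was present in 25 of the 27 windows of SAUR genes more than 2-fold lower (92.6%), in 66 of 99 windows of the 100 lowest genes (66.7%), in 64 of the 100 highest and in 6865 of all 12181 windows of ranked genes (56.4%). The G-box CACGTG, a form of the E-box, was in none of the 27 SAUR windows and in 7.503% of all windows, and the auxin response element TGTCTC, searched on both strands, was in 6 of 27 and in 10.04% of all. A match is only these letters in this window, and tandem copies share sequence, so the 27 windows are not independent.

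Other auxin, light and brassinosteroid genes were followed by name, beside 8.66% lower and 5.4% higher of all ranked genes. Of 17 ranked Aux/IAA genes, whose proteins repress auxin response, 7 were lower and 1 was higher (median -0.81): SHY2 (IAA3) had 5.96 FPKM in DEX-labelled and 119.7 FPKM in EtOH-labelled seedlings, and IAA28 had 63.3 FPKM DEX-labelled against 16.5 FPKM EtOH-labelled. IAA6 was listed at 0 in DEX-labelled seedlings and had 21.7 FPKM in EtOH-labelled ones. Of the PIF and shade targets, 7 of 14 ranked genes were lower and 0 higher (median -1.23), among them HAT2, a homeodomain factor of auxin response, at 8.96 FPKM in DEX-labelled and 45.98 FPKM in EtOH-labelled seedlings. HFR1, a bHLH antagonist of the PIFs, was within 2-fold at 153 FPKM DEX-labelled against 118 FPKM EtOH-labelled. In contrast, all 16 ranked light regulators, which include the photoreceptors and HY5, were within 2-fold (median -0.04): HY5 had 45.2 FPKM in DEX-labelled and 54.6 FPKM in EtOH-labelled seedlings, and PHYB had 33.7 FPKM DEX-labelled against 24.9 FPKM EtOH-labelled.

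The PRE genes encode small atypical bHLH proteins that promote elongation downstream of brassinosteroids. Only the members named by the study's primers were followed, and these were low where they could be ranked. PRE1 and PRE5 reached 10 FPKM only in EtOH-labelled seedlings, so the minimum itself favoured low ratios. PRE1 had 0.650 FPKM in DEX-labelled and 24.4 FPKM in EtOH-labelled seedlings, PRE5 (AT3G28857) had 0.414 FPKM DEX-labelled against 17.03 FPKM EtOH-labelled, and PRE6 (KDR) had 20.5 FPKM in DEX-labelled and 105 FPKM in EtOH-labelled seedlings. PRE2 (BNQ2) was not ranked, at 1.52 FPKM DEX-labelled against 1.34 FPKM EtOH-labelled. Both brassinosteroid enzymes followed by name were within 2-fold: BAS1, which inactivates the hormone, had 10.5 FPKM in DEX-labelled and 11.9 FPKM in EtOH-labelled seedlings, and ROT3, a biosynthetic hydroxylase, had 36.2 FPKM DEX-labelled against 38.96 FPKM EtOH-labelled. The bHLH family as a whole had 14 lower and 3 higher of 50 ranked genes (median -0.14), beside 8.66% lower and 5.4% higher of all ranked genes.

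Several cell wall families had more genes lower than higher, as had all ranked genes, with 8.66% lower and 5.4% higher. Of 16 ranked XTH enzymes, which cut and rejoin xyloglucan, 9 were lower and 1 higher (median -1.10), with XTH7 at 1.41 FPKM in DEX-labelled and 48.6 FPKM in EtOH-labelled seedlings and XTH17 at 36.2 FPKM DEX-labelled against 284 FPKM EtOH-labelled. Of 20 ranked expansins, which loosen the wall, 7 were lower and 2 higher (median -0.59). EXPA8 had 9.85 FPKM in DEX-labelled and 91.9 FPKM in EtOH-labelled seedlings, while EXPA7 and EXPA18, both known from root hairs, were the ones that were higher. Arabinogalactan proteins, glycoproteins of the cell surface, had 22 lower and 3 higher of 37 ranked genes (median -1.44). FLA2 had 29.6 FPKM DEX-labelled against 329 FPKM EtOH-labelled, and AGP4 had 61.5 FPKM in DEX-labelled and 582 FPKM in EtOH-labelled seedlings. PRP2, a proline-rich wall protein, had 9.16 FPKM DEX-labelled against 417 FPKM EtOH-labelled, 45.5-fold lower. Laccases and cellulose synthases did not, with 1 higher and 1 lower of 7 and of 14 ranked genes, nor did the glycine-rich proteins, with 5 higher and 4 lower of 34. The 15 ranked tubulins had 3 lower and 0 higher, and 0 lower with dark Col-0 as the reference, and the 10 ranked xylem genes, with the secondary-wall cellulose synthases among them, were all within 2-fold (median -0.72).

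Several groups of surface lipid genes had more members lower than higher, beside 8.66% lower and 5.4% higher of all ranked genes. Of 14 ranked 3-ketoacyl-CoA synthases, which elongate fatty acids for wax, cutin and suberin, 10 were lower and 0 higher (median -1.17), or 5 lower with dark Col-0 as the reference, led by KCS1 at 39.4 FPKM in DEX-labelled and 231 FPKM in EtOH-labelled seedlings. The cuticle wax list had 11 lower and 0 higher of 15 ranked genes (median -1.33). CER1, of alkane synthesis, had 5.22 FPKM DEX-labelled against 53.7 FPKM EtOH-labelled, and LTPG1, a lipid transfer protein of wax export, had 59.1 FPKM in DEX-labelled and 387 FPKM in EtOH-labelled seedlings. GDSL lipases had 16 lower and 3 higher of 33 (median -0.67). Suberin genes moved less, with 2 lower and 0 higher of 11 ranked (median -0.07). The Casparian strip list, of the endodermal barrier in roots, had 6 lower and 0 higher of 8 ranked genes (median -1.45), and 2 lower with dark Col-0 as the reference (median -0.95), with CASP5 (AT5G15290) at 12.3 FPKM DEX-labelled against 191 FPKM EtOH-labelled and its regulator MYB36 within 2-fold at 13.3 FPKM in DEX-labelled and 17.4 FPKM in EtOH-labelled seedlings. In whole seedlings fewer cells of a type and less RNA per cell cannot be told apart.

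Chloroplast groups too had more genes lower than higher, beside 8.66% lower and 5.4% higher of all ranked genes. Of 19 ranked chlorophyll a/b-binding proteins, the light-harvesting antenna, 15 were lower and 0 higher (median -1.51). CAB1 had 692 FPKM in DEX-labelled and 2287 FPKM in EtOH-labelled seedlings and CAB3 had 0.135 FPKM DEX-labelled against 22.3 FPKM EtOH-labelled. These are near-identical copies that share fragments, so their separate values are uncertain. PORA, the protochlorophyllide reductase of etioplasts, had 62.8 FPKM in DEX-labelled and 488 FPKM in EtOH-labelled seedlings, 7.77-fold lower. PORB had 353 FPKM DEX-labelled against 622 FPKM EtOH-labelled, within 2-fold, and PORC had 3.40 FPKM in DEX-labelled and 11.2 FPKM in EtOH-labelled seedlings. LHCA1, of the photosystem I antenna, had 19.5 FPKM DEX-labelled against 48.6 FPKM EtOH-labelled, and the photosystem I subunit PSAE1 had 89.1 FPKM in DEX-labelled and 147 FPKM in EtOH-labelled seedlings. GUN5, a subunit of magnesium chelatase in chlorophyll synthesis, differed little at 48.9 FPKM DEX-labelled against 45.9 FPKM EtOH-labelled. Photosystem subunits had 12 lower and 0 higher of 37 (median -0.77), and plastid 50S and 30S ribosomal proteins 6 lower and 0 higher of 35 (median -0.67). Cytosolic 60S and 40S ribosomal proteins did not share this, with 1 lower and 3 higher of 207 (median 0.05).

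The nuclear-encoded part of the chloroplast NDH complex, which carries cyclic electron flow, was one of the lists added after the values were seen. It had 5 lower and 1 higher of 7 ranked genes (median -3.31). NDH-M had 0.423 FPKM in DEX-labelled and 16.7 FPKM in EtOH-labelled seedlings, and NDH-O had 7.36 FPKM DEX-labelled against 94.3 FPKM EtOH-labelled, whereas NDF2 had 67.2 FPKM in DEX-labelled and 19.8 FPKM in EtOH-labelled seedlings. The beta carbonic anhydrases, also added, split within the family, with 1 higher and 2 lower of 6 ranked genes (median -0.28). CA1, of the chloroplast, had 1.65 FPKM DEX-labelled against 29.1 FPKM EtOH-labelled and CA2 is given above, but BCA3 had 56.6 FPKM in DEX-labelled and 2.44 FPKM in EtOH-labelled seedlings, 23.2-fold higher. The other 3 members were within 2-fold.

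**Figure D4:**
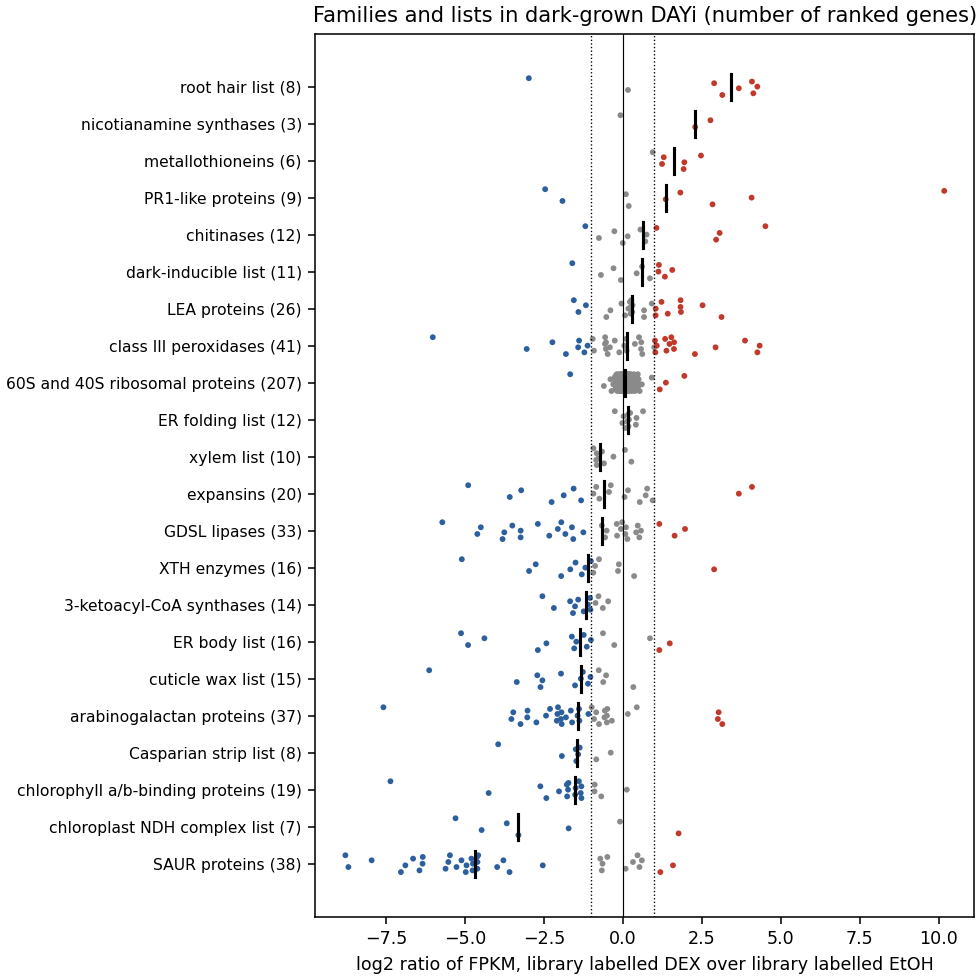
Log2 ratio of DEX-labelled over EtOH-labelled FPKM for every ranked gene (points) of 22 families and lists, with the number of ranked genes in brackets, a black bar at the median and dotted lines at 2-fold. Medians run from 3.41 for the root hair list to -4.69 for the SAUR proteins, and the 207 cytosolic ribosomal proteins sit at 0.05. In the root hair list and the SAUR proteins most genes outside 2-fold reached 10 FPKM in only 1 library, which favours wide ratios. With a minimum of 1 FPKM the medians of these groups were 3.17 and -2.54.

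Metallothioneins and nicotianamine synthases were mostly higher, beside 5.4% higher and 8.66% lower of all ranked genes. Of 6 ranked metallothioneins, small cysteine-rich proteins that bind copper and zinc, 5 were more than 2-fold higher and 0 lower (median 1.61). MT3 had 2878 FPKM in DEX-labelled and 518 FPKM in EtOH-labelled seedlings, MT2B had 4911 FPKM DEX-labelled against 1294 FPKM EtOH-labelled, and MT1A, the second most abundant entry of both libraries, had 34269.5 FPKM in DEX-labelled and 17806 FPKM in EtOH-labelled seedlings, within 2-fold. MT1A and MT1C are close copies and may share fragments. Nicotianamine synthases, which make an iron and zinc chelator, had 2 higher of 3 ranked genes: NAS1 had 26.4 FPKM DEX-labelled against 3.85 FPKM EtOH-labelled and NAS2 had 54.4 FPKM in DEX-labelled and 11.1 FPKM in EtOH-labelled seedlings. The 3 ranked ferritins, which store iron, were within 2-fold (median -0.45). Of the iron list, 13 of 17 ranked genes were within 2-fold, including the root iron transporter IRT1 at 61.6 FPKM DEX-labelled against 53.2 FPKM EtOH-labelled.

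The root hair list had 6 higher and 1 lower of 8 ranked genes (median 3.41), and the rest of its 27 genes stayed under 10 FPKM in both libraries. The 6 reached 10 FPKM only in DEX-labelled seedlings and the lower one only in EtOH-labelled ones, so the minimum itself favoured wide ratios. With a minimum of 1 FPKM, 20 were higher and 1 lower of 25 ranked genes (median 3.17). The peroxidase RHS19 had 18.3 FPKM in DEX-labelled and 0.954 FPKM in EtOH-labelled seedlings, RHS13 had 34.4 FPKM DEX-labelled against 1.96 FPKM EtOH-labelled, and the expansin EXPA18 had 12.4 FPKM in DEX-labelled and 0.731 FPKM in EtOH-labelled seedlings. LRX2, a wall protein of growing hairs, was the one that was lower, with 1.36 FPKM DEX-labelled against 10.8 FPKM EtOH-labelled. The 6 genes were also more than 2-fold above Col-0 in dark bri1-116, mostly under 10 FPKM, with RHS13 at 10.8 FPKM in bri1-116 and 1.29 FPKM in Col-0. In the light pair all 6 were within 2-fold, with RHS13 at 65.4 FPKM in DEX-labelled and 37.9 FPKM in EtOH-labelled seedlings.

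Class III peroxidases, secreted enzymes that stiffen walls or make radicals, went both ways, with 14 higher and 8 lower of 41 ranked genes (median 0.12), and 3 lower with dark Col-0 as the reference. Of all ranked genes 5.4% were higher and 8.66% lower, and this and the following counts stand beside those shares. AT1G49570 had 327 FPKM in DEX-labelled and 16.2 FPKM in EtOH-labelled seedlings, while peroxidase 23 (AT2G38390) had 0.241 FPKM DEX-labelled against 15.7 FPKM EtOH-labelled. PR1-like proteins had 5 higher and 2 lower of 9 (median 1.36) and chitinases, which cut fungal cell walls, 4 higher and 1 lower of 12 (median 0.63), with AT2G43590 at 1532 FPKM in DEX-labelled and 198 FPKM in EtOH-labelled seedlings. LEA proteins, which protect drying cells, had 9 higher and 3 lower of 26 (median 0.30). NAC factors had 5 higher and 0 lower of 24 (median 0.11), led by ATAF1, a stress factor, at 396 FPKM DEX-labelled against 66.8 FPKM EtOH-labelled. Heat-shock proteins had 0 higher and 3 lower of 62 (median -0.06), and their 4.84% lower is under the share of all ranked genes. The heat shock list had 0 higher and 2 lower of 8 (median -0.69), whereas the ER folding list, with the chaperones BIP1 and BIP2, had all 12 ranked genes within 2-fold (median 0.17).

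Hormone and defence lists were mixed, beside 5.4% higher and 8.66% lower of all ranked genes. Of 7 ranked jasmonate defence genes, JAZ10, a repressor of jasmonate response, was higher at 41.1 FPKM in DEX-labelled and 5.37 FPKM in EtOH-labelled seedlings, and MYC2, the transcription factor that it represses, was lower at 11.8 FPKM DEX-labelled against 40.2 FPKM EtOH-labelled. The biosynthetic enzyme AOS was also lower, with 7.75 FPKM in DEX-labelled and 17.8 FPKM in EtOH-labelled seedlings. The jasmonate turnover genes, listed after their values were seen, had 1 higher, CYP94B3, and 1 lower, ILL6, of 4 ranked (median 0.40), with ILL6 at 5.69 FPKM DEX-labelled against 17.6 FPKM EtOH-labelled. Glucosinolate genes had 4 higher and 1 lower of 13 ranked (median 0.46): CYP83B1, of the indole branch, had 285 FPKM in DEX-labelled and 90.3 FPKM in EtOH-labelled seedlings, its regulator MYB51 had 75.03 FPKM DEX-labelled against 28.8 FPKM EtOH-labelled, and MYB34, another regulator, had 3.52 FPKM in DEX-labelled and 33.8 FPKM in EtOH-labelled seedlings. The ABA and cold list had 2 higher and 5 lower of 12 (median -0.42), with KIN2 at 1.44 FPKM DEX-labelled against 22.9 FPKM EtOH-labelled and ABI2, a phosphatase of ABA signalling, at 37.4 FPKM in DEX-labelled and 13.4 FPKM in EtOH-labelled seedlings. Of 15 ranked apical hook and ethylene genes, 2 were lower and 0 higher, and with dark Col-0 as the reference 1 of 14 was lower. In the pair itself ACS5, an enzyme of ethylene synthesis, had 0.662 FPKM DEX-labelled against 10.6 FPKM EtOH-labelled. HLS1, which is needed to form the hook, was the other lower gene, with 7.197 FPKM in DEX-labelled and 15.4 FPKM in EtOH-labelled seedlings.

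Genes of sugar starvation and of nitrate use came next, beside 5.4% higher and 8.66% lower of all ranked genes. Of 11 ranked dark-inducible genes 4 were higher and 1 lower (median 0.61), but with dark Col-0 as the reference 1 was higher and 1 lower (median 0.21). Examples are the beta-glucosidase DIN2 at 155 FPKM in DEX-labelled and 52.5 FPKM in EtOH-labelled seedlings and DIN4, of branched-chain amino acid breakdown, at 172 FPKM DEX-labelled against 68.5 FPKM EtOH-labelled. DYL1, a dormancy-associated gene, was lower at 519 FPKM in DEX-labelled and 1576 FPKM in EtOH-labelled seedlings. Of 10 ranked nitrate genes 2 were lower and 0 higher (median -0.29), and with dark Col-0 as the reference 3 were lower and 1 higher (median -0.25). The nitrate reductase NIA1 had 7.72 FPKM DEX-labelled against 104 FPKM EtOH-labelled, 13.5-fold lower, while its paralog NIA2 had 238 FPKM in DEX-labelled and 147 FPKM in EtOH-labelled seedlings. Aquaporins had 2 higher and 3 lower of 14 (median -0.83), with the vacuolar water channel TIP2-1 (DELTA-TIP) at 149 FPKM DEX-labelled against 1344 FPKM EtOH-labelled. Seed storage genes stayed under 10 FPKM in both libraries.

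Stomatal, ER body and triterpene genes were listed after their values were seen, so their counts support nothing. Of 4 ranked genes of the stomatal lineage 3 were higher and 1 lower (median 3.02). SPCH, the factor that starts the stomatal lineage, had 17.7 FPKM in DEX-labelled and 0.745 FPKM in EtOH-labelled seedlings, and TMM, a receptor that patterns stomata, had 95.3 FPKM DEX-labelled against 4.81 FPKM EtOH-labelled. STOMAGEN, a peptide from the mesophyll that promotes stomata, went the other way with 2.94 FPKM in DEX-labelled and 43.2 FPKM in EtOH-labelled seedlings. ER bodies store defence beta-glucosidases in the Brassicaceae. Of 16 ranked ER body genes 11 were lower and 2 higher (median -1.36), with PYK10, their main enzyme, at 548 FPKM DEX-labelled against 2939 FPKM EtOH-labelled, the jacalin lectin JAL22 at 18.1 FPKM in DEX-labelled and 541 FPKM in EtOH-labelled seedlings, and BGLU21 at 107 FPKM DEX-labelled against 38.3 FPKM EtOH-labelled.

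Some of the lowest genes were neighbours. Of 6 ranked triterpene cluster genes 5 were lower and 0 higher (median -3.84). In the thalianol cluster of chromosome 5, a block of triterpene genes, thalianol synthase THAS1 had 1.96 FPKM in DEX-labelled and 23.1 FPKM in EtOH-labelled seedlings, CYP708A2 had 1.66 FPKM DEX-labelled against 37.7 FPKM EtOH-labelled, and CYP705A5 had 6.27 FPKM in DEX-labelled and 109 FPKM in EtOH-labelled seedlings. Acyltransferase genes of the same region were too low to be ranked and did not share this. AT5G47980 had 1.24 FPKM DEX-labelled against 0.578 FPKM EtOH-labelled, and AT5G47950 had 4.62 FPKM in DEX-labelled and 4.73 FPKM in EtOH-labelled seedlings. In the jacalin lectin array of chromosome 3, 4 of 5 ranked genes were lower, whereas all 3 ranked jacalin lectins at AT1G52050 to AT1G52070 on chromosome 1 were higher by 4.28-fold to 6.37-fold. Within 10 kb of one another lay 28 of the 100 lowest genes, in 10 groups of up to 5, and 8 of the 100 highest genes, in 4 pairs. Among all entries of 1 locus past 2-fold the shares were closer, with 248 of 1057 lower genes and 144 of 660 higher genes in such groups. By chromosome, 4.57% to 6.35% of ranked genes were higher and 8.10% to 9.19% lower.

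The same ends were then read in the light DAYi pair, which shares no library with the dark pair. There 10.3% of all ranked genes with a value at 10 FPKM or more were over 2-fold higher in DEX-labelled seedlings and 11.1% over 2-fold lower. Of the 100 highest genes of the dark pair 78 reached that level, and 53 of them were higher and 2, AT5G42530 and AGL20, lower (median 2.21). Of the 100 lowest genes 68 did, and 56 were lower and 0 higher (median -3.10). BGLU45 had 1129.5 FPKM in DEX-labelled and 0.876 FPKM in EtOH-labelled light-grown seedlings, and CYS2 had 4409.6 FPKM in DEX-labelled and 2.08 FPKM in EtOH-labelled ones. IMS2 was among those not higher, with 32.6 FPKM in DEX-labelled and 49.04 FPKM in EtOH-labelled light-grown seedlings. Both pairs carry the same title numbers, so a line and a treatment cannot be told apart here either.

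In dark bri1-116 over Col-0, 7.54% of all ranked genes were over 2-fold higher and 6.73% over 2-fold lower. Only 23 of the 100 highest DAYi genes reached 10 FPKM in that pair, 9 of them higher and 3, AT2G05510, AT3G50800 and AT4G28085, lower in bri1-116. Of the 100 lowest, 84 reached it, and 54 were lower and 9 higher in bri1-116 (median -2.02). PRE1 and SAUR24 were low in both comparisons: PRE1 had 0.502 FPKM in bri1-116 and 21.2 FPKM in Col-0, and SAUR24 had 5.39 FPKM in bri1-116 and 54.3 FPKM in Col-0. CAB3, NDH-M and CA1 were not. CAB3 had 187 FPKM in bri1-116 and 44.05 FPKM in Col-0, NDH-M had 46.9 FPKM in bri1-116 and 12.1 FPKM in Col-0, and CA1 had 165 FPKM in bri1-116 and 45.7 FPKM in Col-0, all higher in bri1-116. Whether the differences of DAYi and bri1-116 differ from each other was not tested.

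**Figure D5:**
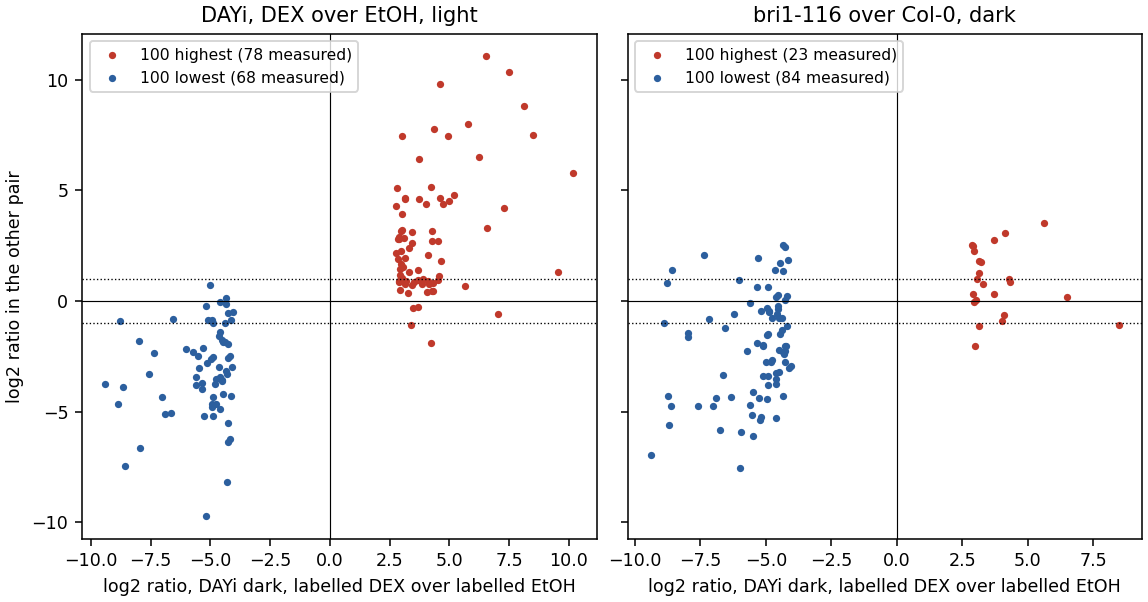
Log2 ratios of the 100 highest (red) and 100 lowest (blue) genes of the dark DAYi pair on the horizontal axis, against their log2 ratio in the light DAYi pair (left, 78 and 68 genes at 10 FPKM or more) and in dark bri1-116 over Col-0 (right, 23 and 84 genes), with dotted lines at 2-fold. On the left 53 red points lie above the band and 56 blue ones below it; on the right 54 blue points lie below and 9 above.

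The EtOH-labelled library itself was close to dark Col-0. Of 11672 ranked genes with a value above 0 in both tables and 10 FPKM or more in one of them, 42 (0.36%) were over 2-fold higher and 20 (0.171%) over 2-fold lower in EtOH-labelled DAYi seedlings than in Col-0, with the tables normalized separately. Without that minimum the counts were 53 higher and 26 lower of 12330. Of the 100 highest genes 15 reached the minimum here, all within 2-fold. Among the 100 lowest genes of the dark DAYi pair 4 were higher by this measure, AT5G04120, AT3G28857, AT4 and AT4G22460, and 1 was lower, AT3G05730, a defensin-like gene. AT4, a non-coding RNA of phosphate regulation, had 11.8 FPKM in DEX-labelled and 239.6 FPKM in EtOH-labelled seedlings, and 94.04 FPKM in Col-0.

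Against Col-0 the DEX-labelled library had 6.74% of 12134 ranked genes at the same minimum over 2-fold higher and 7.67% over 2-fold lower. This measure shares the DEX-labelled library with the main ratio.

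The thresholds have close neighbours. SKIP4 was just under the 10 FPKM minimum at 9.99979 FPKM in DEX-labelled and 7.21 FPKM in EtOH-labelled seedlings, and AT1G18440 just reached it at 10.0004 FPKM DEX-labelled against 9.30 FPKM EtOH-labelled. AT3G06270, with 27.7 FPKM in DEX-labelled and 13.8 FPKM in EtOH-labelled seedlings, was just past 2-fold higher, and GSR 1, a glutamine synthetase with 233 FPKM DEX-labelled against 117 FPKM EtOH-labelled, just short of it. AT5G25240, with 10.02 FPKM in DEX-labelled and 20.04 FPKM in EtOH-labelled seedlings, was just past 2-fold lower, and AT2G16990, with 7.95 FPKM DEX-labelled against 15.9 FPKM EtOH-labelled, just short of it.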

How the data were processed

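Polyadenylated RNA of whole seedlings was sequenced by the study, 1 library per condition, so p-values, errors and replicate checks could not be had. According to the submitters' processing notes, CASAVA 1.8.2, TopHat2 2.0.13 and Cuffdiff 2.2.0 were used, with the TAIR10 build. The authors deposited FPKM per gene for both libraries of each comparison, with their own fold changes, p-values and q-values, which were not used. Cuffdiff scales each table by itself, so levels from different tables are set side by side only as such. FPKM are not counts, and the depth of the libraries is not given in the files. From the steps between low values of intronless genes, about 74.7 (DEX-labelled) and 101 (EtOH-labelled) fragments per FPKM and kb were estimated, but only 46.3% and 48.9% of the low values came out whole within 0.15, against 30% if unfitted, so these are rough.

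Genes of at least 10 FPKM in 1 library and above 0 in both were ranked by the ratio of DEX over EtOH without a pseudocount. Families (75) were read from the description column by key words, and 30 gene lists were matched by symbol, 449 of 497 symbols being found. The members and lists were chosen with earlier results of these data known, and 6 of the lists (stomatal lineage, jasmonate turnover, chloroplast NDH complex, ER bodies, triterpene clusters, beta carbonic anhydrases) were added after the values were seen. Named genes are DAY and BRI1, the genes of the study's primers, the 25 genes at each end, the most abundant entries, those listed at 0, and up to 4 members at each end of a family or list. Names outside this rule (genes inside the arrays, the threshold neighbours and single exceptions) were chosen after their values were seen. Motifs were searched in 250 bases before RefSeq gene starts (TAIR10.1), for 12181 ranked genes. The sample titles were followed for the dark bri1-116 and Col-0 libraries. That annotation holds 26312 of the 26795 entries that name 1 locus. A further 5 symbols read as calendar dates in the table and their loci were used, and the values of 1 entry are not reported here. Minimum, pseudocount, scaling, fold threshold and dark Col-0 in place of EtOH were tried as alternatives. Ratios and depth estimates were tested on simulated data. Python 3.11.15, numpy 2.4.6, pandas 2.3.3 and matplotlib 3.10.9 were used.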

Additional observations from a re-analysis of the deposited data

Results flagged for a closer look

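The log2 ratios of DEX-labelled over EtOH-labelled FPKM lay outside the 2-fold band in opposite directions in the dark and light DAYi pairs for 5 genes named above, and with 1 library a side the difference between the pairs was not tested. DAY itself (AT3G51140) was at 1.38 in dark-grown and -3.05 in light-grown seedlings. AT5G42530, a hypothetical protein, was at 4.23 in the dark and -1.92 in the light. AGL20, the flowering activator SOC1, was at 3.38 in the dark and -1.10 in the light. AT2G01021, the abundant short transcript, was at 1.11 in the dark and -1.90 in the light. AT5G25240, just past the 2-fold threshold, was at -1.0002 in the dark and 1.09 in the light. Among the 10987 genes ranked in both pairs, 767 were outside the band in both, with 17 of these higher under darkness but lower under long days, and 30 the other way round.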

How the results depend on the processing

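The main counts of 666 genes over 2-fold higher and 1069 lower grew with the genes admitted. A minimum of 1 FPKM in place of 10 gave 1396 higher and 2047 lower, no minimum gave 2084 and 2712, and a threshold of 4-fold gave 189 and 387. With every other alternative both counts stayed within 1.5 times, from 493 to 862 higher and from 740 to 1410 lower. The share of calls that were higher was 38.4%, and with dark Col-0 in place of EtOH-labelled seedlings 45.6%. A set of 210 genes held the 100 at each end, the ranked genes of the study's primers, DAY and BRI1. None of their directions turned under rescaling without AT2G01021 or against Col-0. Most were picked for wide ratios, and the Col-0 ratio shares the DEX-labelled library, so a turn was unlikely from the start. Against Col-0 the ratios of 55 moved by over 1.5 times. Some of the 210 counts of families and lists, higher or lower, moved by over 1.5 times, or to or from 0. With a minimum of 1 FPKM 95 did, and with dark Col-0 as the reference 40. Lower genes then numbered 3 of the class III peroxidases (8 in the pair itself), 5 of the 3-ketoacyl-CoA synthases (10) and 2 of the Casparian strip list (6). They numbered 0 of the tubulins (3), 5 of the extensins (8) and 1 of the apical hook and ethylene list (2). Higher genes numbered 1 of the dark-inducible list (4), 4 of the expansins (2) and 1 of the nitrate list (0). No paired analysis was possible because each condition has 1 library. Genes under about 10 FPKM, and ratios with few fragments on one side, are limited by depth.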
